A study of Mus musculus with 4 samples.

Results

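Myosin heavy chains are the motor subunits of myosin, and 9 of their genes are described here: the developmental forms Myh3 and Myh8, the adult fast forms Myh1, Myh2 and Myh4, the slow and cardiac forms Myh7 and Myh6, and the nonmuscle forms Myh9 and Myh10. They were taken by gene symbol from a table of 23351 gene rows, where all 9 were found. Levels are in FPKM, a read-out in which fragments are divided by transcript length and library size. Of the 9 genes, 6 averaged 1 FPKM or more over the libraries and could be tested. The cells were primary satellite cells, stem cells that build and repair muscle fibres, which the labels trace to the extensor digitorum longus, a fast hindlimb muscle, taken at 6 to 8 weeks of age from the C57BL/6 strain. Compared here are 2 libraries labelled ERβ scKO, from mice that the design text calls a conditional knockout (cKO) of estrogen receptor β, and 2 labelled Control. The title speaks of young females, and the design text of triplicates. The Cre driver, the controls' own alleles, the culture medium and whether a library came from 1 animal are not given in the sources used here, so p-values measure the spread between these libraries, which may be technical.

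A myosin heavy chain carries the ATP-driven head that pulls on actin and the long tail that packs into filaments. Muscle makes its isoforms in a known sequence. Embryonic and perinatal forms come first in new fibres and give way to adult fast or slow forms that set contraction speed. Nonmuscle forms drive cytokinesis, adhesion and movement in nearly every cell, and in cultured myoblasts they are present before the sarcomeric forms appear. In the mouse the developmental and adult fast genes lie in a row on 1 chromosome.

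Low FPKM values fell on regular steps, whose spacing matched about 2960000 and 3160000 fragments in ERβ scKO replicates 1 and 2 and about 2720000 and 3160000 in Control replicates 1 and 2. The steps allow the fragments behind each value to be estimated. Esr2, the gene of estrogen receptor β, was listed at 0 in both ERβ scKO libraries and stood at 2 estimated fragments in each Control library, too few to check the labels. Control replicate 1 stood apart from the other libraries: 8.52% of the 11201 genes tested were over 1.3 times as high there as in any other library and 7.33% were lower than in any other by that factor, against 1.23% to 2.24% and 2.05% to 3.37% for the other libraries. Satellite cell and myoblast markers were present throughout, with all 6 listed genes measured and a summed level of 1001 and 989 FPKM in the ERβ scKO libraries and 1041 and 952 FPKM in the Control libraries. Endothelial, leukocyte and Schwann cell markers summed to at most 3.26 FPKM per list in any library.

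Among the 9 genes the order of levels, per length, was the same in all 4 libraries for the 6 that were clearly measured. The embryonic form Myh3 came first, followed by the nonmuscle form Myh9, the adult fast IIX form Myh1, then Myh10, Myh8 and Myh7. Over the 4 libraries the ranges of neighbours in this order did not overlap, except those of Myh8 and Myh7. Myh2, Myh4 and Myh6 were at the limit of detection.

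**Figure D1:**
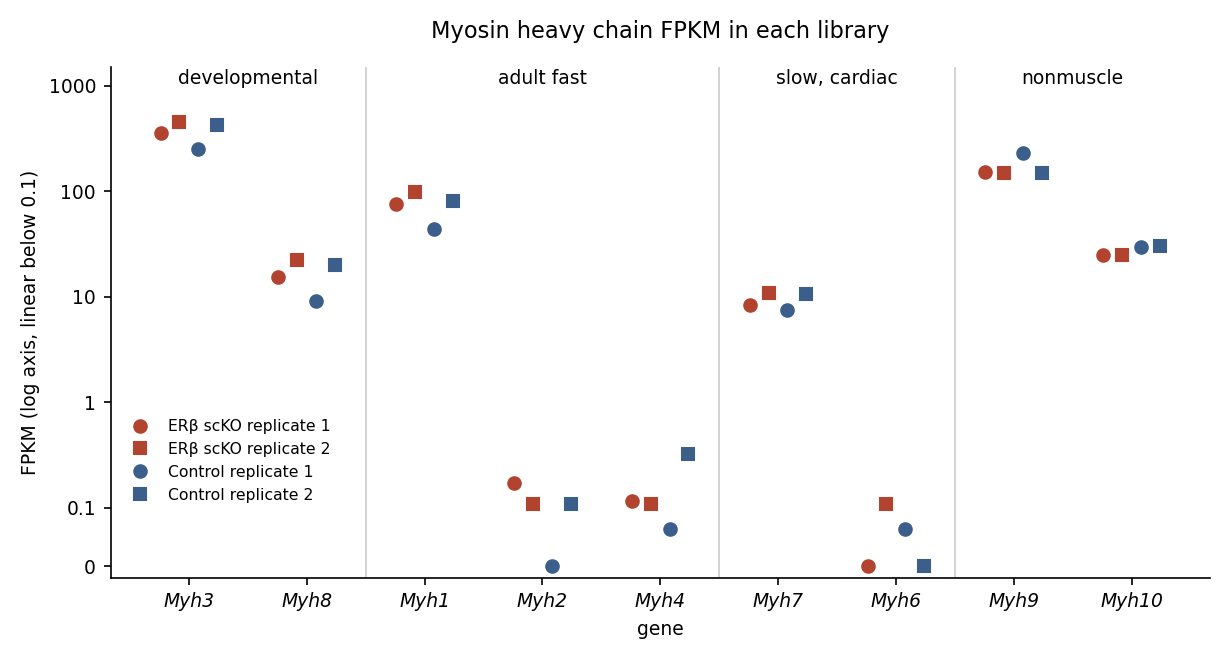
FPKM of the 9 myosin heavy chain genes (x axis) in each library on a log axis that is linear below 0.1; each point is 1 library, red for ERβ scKO and blue for Control, circles for replicate 1 and squares for replicate 2. Myh3 was between 252 and 459 FPKM, whereas Myh2, Myh4 and Myh6 were at or below 0.324 FPKM in all 4 libraries.

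Myh3, Myh2, Myh1, Myh4 and Myh8 follow each other in this order on the plus strand of chromosome 11 (mm10), from 67078300 to 67308633, with Myh13 after them. Neighbours in this row differed widely in level. Myh1 (67200114 to 67224575) averaged 86.5 FPKM in ERβ scKO and 62.2 FPKM in Control, whereas Myh2, which ends 2597 bases before it, and Myh4, which starts 13237 bases after it, did not pass 0.324 FPKM in any library. The promoters of the 5 genes are printed because their sequences are alike in part while the levels are not. The windows run from 250 bases before to 50 after the gene start and come from RefSeq on GRCm38.p6, the assembly known as mm10. Capitals mark E-boxes (CANNTG, the sequence bound by MyoD and myogenin), the MEF2 consensus (bound by the MEF2 factors of muscle genes) and a stretch shared by 4 windows (TTCTAATTATATCC).
Myh3: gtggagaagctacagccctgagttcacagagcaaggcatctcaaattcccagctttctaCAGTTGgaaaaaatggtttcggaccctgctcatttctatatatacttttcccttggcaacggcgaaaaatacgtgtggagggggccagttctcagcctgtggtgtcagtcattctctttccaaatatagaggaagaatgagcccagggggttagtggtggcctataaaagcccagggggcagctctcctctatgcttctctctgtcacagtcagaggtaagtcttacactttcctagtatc
Myh8: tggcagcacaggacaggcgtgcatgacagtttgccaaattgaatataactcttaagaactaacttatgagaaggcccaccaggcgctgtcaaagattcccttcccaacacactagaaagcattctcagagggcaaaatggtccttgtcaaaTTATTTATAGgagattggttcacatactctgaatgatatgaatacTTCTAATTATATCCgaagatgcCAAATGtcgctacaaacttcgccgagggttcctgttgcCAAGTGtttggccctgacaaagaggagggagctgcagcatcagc
Myh1: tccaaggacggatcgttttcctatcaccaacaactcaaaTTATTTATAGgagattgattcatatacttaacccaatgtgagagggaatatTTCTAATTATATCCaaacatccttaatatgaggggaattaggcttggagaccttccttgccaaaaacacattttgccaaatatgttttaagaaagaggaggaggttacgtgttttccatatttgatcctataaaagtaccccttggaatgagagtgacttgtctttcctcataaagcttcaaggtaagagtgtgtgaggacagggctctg
Myh2: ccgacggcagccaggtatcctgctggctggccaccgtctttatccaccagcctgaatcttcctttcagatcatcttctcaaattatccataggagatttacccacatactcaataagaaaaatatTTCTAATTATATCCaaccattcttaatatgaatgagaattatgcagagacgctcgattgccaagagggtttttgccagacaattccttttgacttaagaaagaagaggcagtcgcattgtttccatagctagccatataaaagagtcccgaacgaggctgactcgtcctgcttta
Myh4: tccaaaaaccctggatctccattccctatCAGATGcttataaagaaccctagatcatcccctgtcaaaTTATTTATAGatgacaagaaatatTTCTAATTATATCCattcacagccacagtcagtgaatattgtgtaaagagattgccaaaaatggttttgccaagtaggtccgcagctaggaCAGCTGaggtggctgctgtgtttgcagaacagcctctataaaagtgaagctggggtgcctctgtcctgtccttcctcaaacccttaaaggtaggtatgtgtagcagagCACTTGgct

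The Myh3 window is chr11:67078050-67078349, that of Myh8 chr11:67276874-67277173, that of Myh1 chr11:67199852-67200151, that of Myh2 chr11:67170777-67171076 and that of Myh4 chr11:67237562-67237861, all on the plus strand. Both strands were searched, and positions count from the gene start as 0. A match to the MEF2 consensus stood in the windows of Myh8 (position -99), Myh1 (-211) and Myh4 (-182), and in 3.19% of all 32851 mouse promoter windows of this length. The shared stretch is the longest run of bases common to the windows of Myh1, Myh2, Myh4 and Myh8, and no other promoter window held it, 4 of 32851 in all (0.0122%). It was looked for after the sequences were read. The stretch began at -54 in Myh8, -160 in Myh1, -125 in Myh2 and -158 in Myh4. Relative to it the windows therefore cover different parts of the promoters, and counts and positions of matches are not strictly comparable between them. E-boxes, which 72.3% of all windows hold, numbered 1 in the window of Myh3, 2 in that of Myh8, 3 in that of Myh4 and 0 in those of Myh1 and Myh2. The TATA letters (TATAAA, in 13.6% of windows) stood inside the 3 MEF2 matches and were also found at -29 in Myh3, -32 in Myh1, at -213 and -31 in Myh4 and at 10, after the start, in Myh2. Myh1, at 44.2 to 97.6 FPKM, and Myh4, at 0.0627 to 0.324 FPKM, both held a MEF2 match and the shared stretch. These matches describe the letters only.

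Similar sequence also bears on how reads are assigned. Of the stretches of 50 bases in the Myh1 transcript, 26.7% were also found in another heavy chain transcript, and 19.7% in Myh2. For Myh7 the share was 22.2%, all with Myh6, and for Myh3, Myh9 and Myh10 it was 4.81%, 1.12% and 0.943%. The Myh1 and Myh2 transcripts were identical at 90.3% of aligned bases. How reads that match several genes were assigned is not given in the sources used here. The small values of Myh2, Myh4, Myh6 and Myh13 are therefore uncertain.

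Both developmental forms were at their lowest in Control replicate 1, and neither differed between the groups beyond the spread between libraries. Myh3, the embryonic heavy chain and the first to appear in new myofibres (chromosome 11, 67078300 to 67102291), had 357 and 459 FPKM in the ERβ scKO libraries, against 252 and 425 FPKM in the Control libraries. The groups overlapped, since Control replicate 2 was above ERβ scKO replicate 1. Its mean was 408 ± 72.2 FPKM in ERβ scKO and 339 ± 122 FPKM in Control (SD, n = 2 each). The log2 ratio, ERβ scKO minus Control in log2(FPKM + 1), was 0.31 (SE 0.26, 95% interval -0.34 to 0.95), with a limma adjusted p of 0.846. Without Control replicate 1 the ratio was -0.07. These values rest on 6196 and 8503 estimated fragments in ERβ scKO and 4018 and 7864 in Control, a counting error of at most 1.58%, so the spread between libraries was far larger than the counting error.

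Myh8, the perinatal or neonatal heavy chain (chromosome 11, 67277124 to 67308633), was at 15.4 and 22.1 FPKM in ERβ scKO and at 9.16 and 19.9 FPKM in Control. Control replicate 1 was again the lowest library and the groups overlapped. The log2 ratio was 0.42 (SE 0.36, 95% interval -0.48 to 1.32, limma adjusted p = 0.846), and it was -0.10 without Control replicate 1. Myh3 was 23.2 and 20.7 times as high as Myh8 in the ERβ scKO libraries and 27.5 and 21.3 times as high in the Control libraries.

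Of the adult fast forms only Myh1 was clearly measured, and it had the largest ratio of the 6 tested members. Myh1, the heavy chain of fast IIX fibres, was at 75.4 and 97.6 FPKM in ERβ scKO, against 44.2 and 80.2 FPKM in Control. The groups overlapped by a small margin, Control replicate 2 being above ERβ scKO replicate 1. The mean was 86.5 ± 15.7 FPKM in ERβ scKO and 62.2 ± 25.5 FPKM in Control (SD, n = 2 each), with a log2 ratio of 0.52 (SE 0.29, 95% interval -0.19 to 1.23) that limma did not call (adjusted p = 0.837). In the authors' deposited table Myh1 had p = 0.0209 and q = 0.998, and it was the one member of the 6 they tested with p under 0.05, as were 3.25% of all genes they tested. Without Control replicate 1 the limma log2 ratio was 0.10, and without Control replicate 2 it was 0.94.

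Myh2, the heavy chain of fast IIA fibres (chromosome 11, 67171027 to 67197517), was at 0.171 and 0.107 FPKM in ERβ scKO and at 0 and 0.107 FPKM in Control, which corresponds to about 3 and 2 fragments against 0 and 2. Myh4, the heavy chain of fast IIB fibres (chromosome 11, 67237812 to 67260447) and a major form of the adult mouse extensor digitorum longus, was at 0.115 and 0.108 FPKM in ERβ scKO and at 0.0627 and 0.324 FPKM in Control, or about 2 and 2 fragments against 1 and 6. A count of 3 fragments, the limit that a count of 0 allows, corresponds to 0.161 to 0.189 FPKM for these 2 genes. Both genes were therefore at or near this limit, no fold is given, and no difference between groups was detectable at this depth. Parvalbumin, encoded by Pvalb and another product of mature fast fibres, was at 0 and 0.433 FPKM in ERβ scKO and at 0 and 0.43 FPKM in Control.

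The slow form Myh7 hardly differed between the groups, and Myh6 was at the limit of detection. Myh7, the heavy chain of slow fibres and also a cardiac form, lies on the minus strand of chromosome 14 (54968787 to 54994549). It was at 8.27 and 10.9 FPKM in ERβ scKO and at 7.43 and 10.7 FPKM in Control. The groups overlapped. The log2 ratio was 0.08 (SE 0.23, 95% interval -0.48 to 0.64, limma adjusted p = 0.951), and leaving out Control replicate 1 gave -0.16, while leaving out ERβ scKO replicate 2 gave -0.10. Myh6, also a cardiac heavy chain, is the neighbour of Myh7 (54941921 to 54966607). It was at 0 and 0.108 FPKM in ERβ scKO and at 0.0628 and 0 FPKM in Control. That is about 0 and 2 fragments against 1 and 0. Of the 4 cardiomyocyte markers, Nppa and Myl7 were at 0 in all 4 libraries and the summed level was 1.07 and 0.485 FPKM in ERβ scKO and 0.558 and 0.482 FPKM in Control.

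The 4 measured sarcomeric genes shared 1 order of libraries. Myh3, Myh8, Myh1 and Myh7 were each highest in ERβ scKO replicate 2, then in Control replicate 2, then in ERβ scKO replicate 1, and lowest in Control replicate 1. This order, looked for after the values were seen, was held by 7.17% of all genes tested. The libraries of 1 group also differed from each other: on the log2 scale replicate 2 minus replicate 1 came to 0.36 for Myh3 in ERβ scKO and 0.75 in Control, and to 0.37 in ERβ scKO and 0.85 in Control for Myh1, beside ratios between the groups of 0.31 and 0.52. In bulk libraries fewer cells that make a transcript and less of it per cell cannot be told apart.

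**Figure D2:**
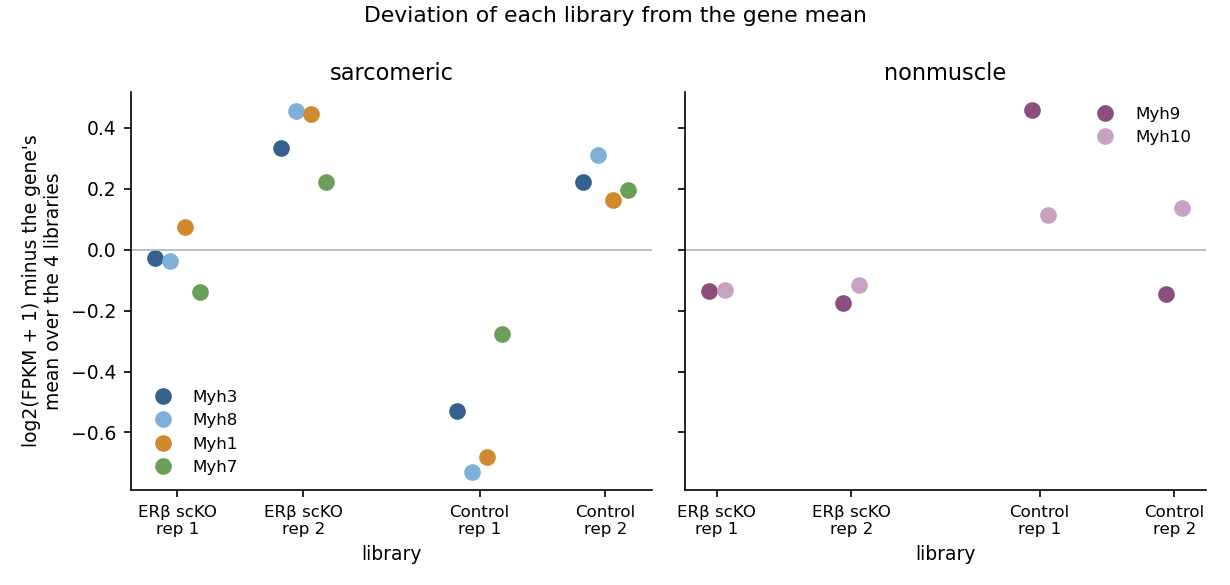
Deviation of each library from the gene's mean over the 4 libraries, in log2(FPKM + 1), with each point 1 gene in 1 library; sarcomeric genes are on the left panel and nonmuscle genes on the right, with the ERβ scKO libraries left of the Control libraries. The sarcomeric genes shared the order of libraries, with Control replicate 1 lowest, while Myh9 was highest in Control replicate 1 and Myh10 was below both Control libraries in both ERβ scKO libraries.

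The nonmuscle forms went the other way, and Myh10 was the one tested member whose groups did not overlap. Myh10, nonmuscle heavy chain IIB, which acts in cytokinesis and stress fibres (chromosome 11, 68691915 to 68816624), was at 24.8 and 25.1 FPKM in ERβ scKO, against 29.6 and 30.1 FPKM in Control. The higher ERβ scKO value lay below the lower Control value, as in 18.3% of all genes tested, and the replicates lay close together. In either direction, groups were apart for 1 of the 6 tested members and for 36.5% of all genes. The mean was 25 ± 0.226 FPKM in ERβ scKO and 29.9 ± 0.362 FPKM in Control (SD, n = 2 each). The log2 ratio was -0.25 (SE 0.11, 95% interval -0.53 to 0.03), and it was not called (limma fitted across all genes, adjusted p = 0.837). It lay between -0.26 and -0.24 with each library left out in turn. Counting error was 4.23% and 4.07% in ERβ scKO and 4.04% and 3.71% in Control of the level, which was more than the SD of either group.

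Myh9, nonmuscle heavy chain IIA, the main form of the cell cortex and of migrating cells (chromosome 15, 77760589 to 77842115, minus strand), was at 152 and 148 FPKM in ERβ scKO and at 230 and 151 FPKM in Control. Control replicate 1 was far above the other 3 libraries, which lay between 148 and 152 FPKM. The log2 ratio was -0.31 (SE 0.20, 95% interval -0.81 to 0.18, limma adjusted p = 0.837), and without Control replicate 1 it was -0.01. In the same library the fibroblast markers had their highest summed level, 123 and 109 FPKM in ERβ scKO and 188 and 126 FPKM in Control. Most of each sum came from Col1a2 and Col3a1, both highest in Control replicate 1. The less abundant Col1a1, Pdgfra, Thy1 and Dcn were each higher in both replicate 1 libraries than in both replicate 2 libraries. Col1a1 was at 2.09 and 1.4 FPKM in ERβ scKO and at 18.7 and 0.909 FPKM in Control, and so by far highest in Control replicate 1. Thy1 was at 2.59 and 1.42 FPKM in ERβ scKO and at 4.45 and 1.21 FPKM in Control. Pdgfra was at 2.64 and 0.149 FPKM in ERβ scKO and at 3.17 and 0.446 FPKM in Control. Dcn was highest in ERβ scKO replicate 1, at 2.36 FPKM. All 7 fibroblast markers were in the table, 6 of them at a mean of at least 1 FPKM, and Lum was at 0 in all 4 libraries. The nuclear RNAs Malat1 and Neat1, which vary with RNA quality, had summed levels of 270 and 309 FPKM in ERβ scKO and 143 and 206 FPKM in Control. The part of these markers in the levels of the heavy chains was not tested.

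Over all 6 tested members, limma called 0 at an adjusted p of 0.05, where it called 0.0357% of the 11201 genes, and 0 members had an unadjusted limma p under 0.05, against 4.62% of all genes. The authors' deposited table gave q = 0.998 for each of the 6, with p-values of 0.244 for Myh3, 0.0877 for Myh8, 0.732 for Myh7, 0.103 for Myh9 and 0.193 for Myh10 beside that of Myh1. It called 0 of its 9426 tested genes at a q under 0.05. With 2 libraries against 2, an exact two-sided permutation test cannot give a p below 0.333.

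**Figure D3:**
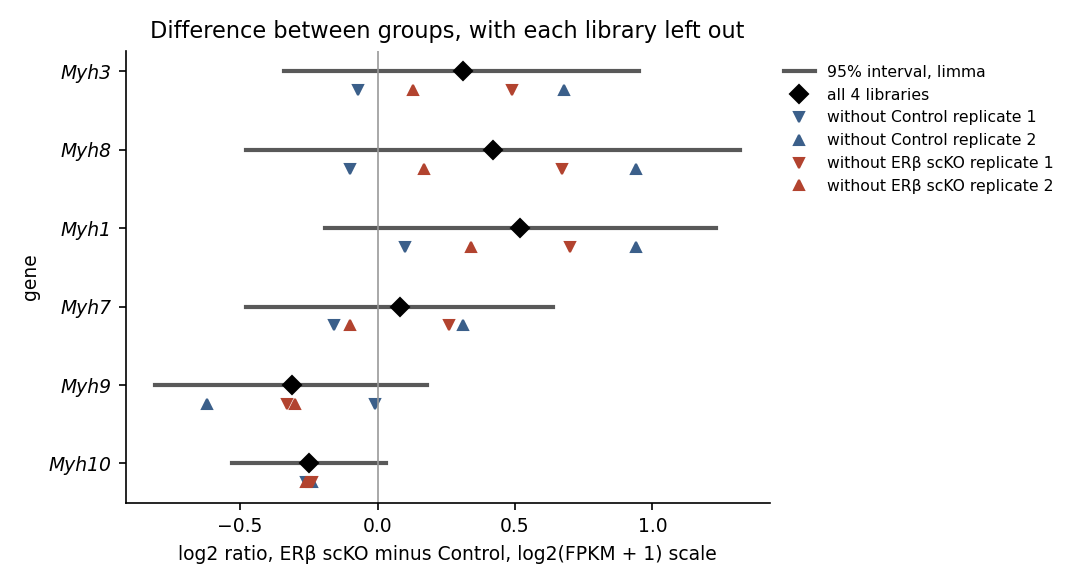
Log2 ratio of ERβ scKO over Control for the 6 tested genes (x axis, log2(FPKM + 1) scale), with the limma 95% interval as a bar and the value with each library left out as triangles. All 6 intervals included 0; without Control replicate 1 the ratios of Myh3, Myh8 and Myh7 were below 0 and that of Myh9 was -0.01, while the values of Myh10 stayed within -0.26 to -0.24.

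The makeup of the sarcomeric heavy chain transcripts varied less between libraries than their amount. Of the summed FPKM of the 7 sarcomeric genes, Myh3 made up 78.2% and 77.8% in ERβ scKO and 80.6% and 79.3% in Control, without overlap. Myh1 made up 16.5% and 16.5% in ERβ scKO and 14.1% and 15% in Control, and these groups did not overlap either. Myh7 made up 1.81% and 1.84% in ERβ scKO and 2.37% and 2% in Control, also without overlap. The share of Myh8, 3.37% and 3.75% in ERβ scKO against 2.93% and 3.71% in Control, overlapped between the groups. Shares within a library are tied to each other, so a larger share of Myh1 goes with a smaller share of the rest. For levels, the groups did not overlap, in either direction, for 36.5% of all genes tested.

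The level of Myh1 divided by that of Myh3 was 0.211 and 0.212 in ERβ scKO, against 0.175 and 0.189 in Control. The 95% counting intervals were 0.199 to 0.224 and 0.202 to 0.223 in ERβ scKO and 0.162 to 0.19 and 0.179 to 0.199 in Control, and they cover counting error only. The ratio was lower in both Control libraries than in both ERβ scKO libraries, and the interval of Control replicate 2 met that of ERβ scKO replicate 1 at its edge. No test across libraries was made of a ratio of members, which were chosen with earlier results of these data known.

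Nonmuscle forms made up 27.9% and 22.7% of the summed FPKM of all 9 genes in ERβ scKO and 45.4% and 25.2% in Control. The sarcomeric sum was 2.59 and 3.41 times the nonmuscle sum in ERβ scKO and 1.2 and 2.96 times in Control. Here too Control replicate 1 set the difference, and the other 3 libraries lay between 2.59 and 3.41.

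**Figure D4:**
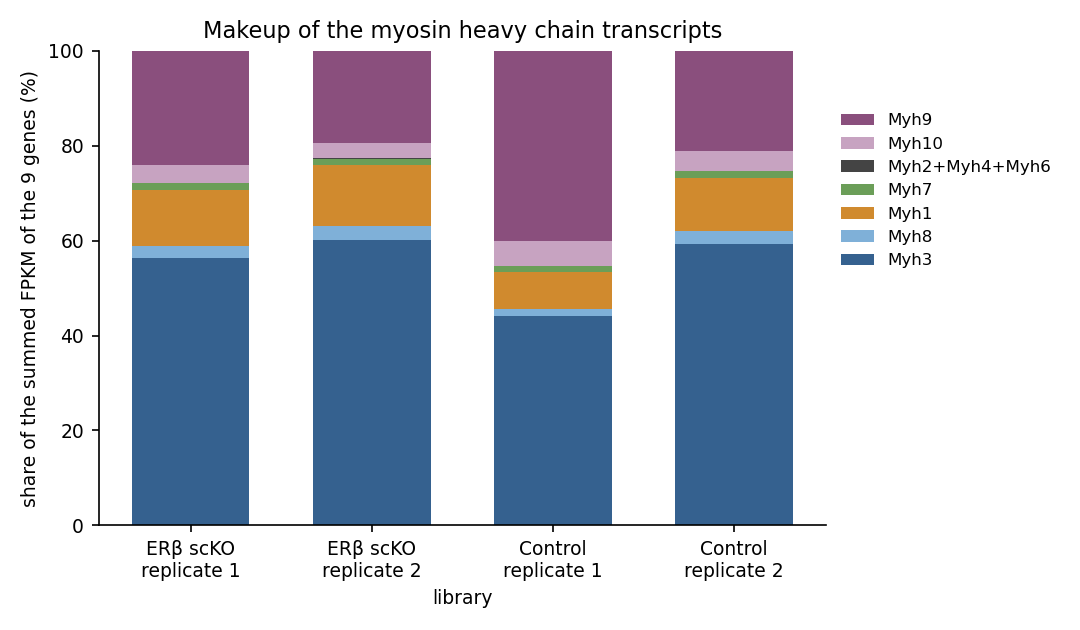
Share of each gene in the summed FPKM of the 9 myosin heavy chain genes (y axis, percent), 1 bar for each library with ERβ scKO left of Control; Myh2, Myh4 and Myh6 are drawn together and are too small to see. Myh3 made up 56.4% and 60.2% in ERβ scKO and 44% and 59.3% in Control, and Myh9 made up 40.2% in Control replicate 1 against 19.4% to 23.9% in the other libraries.

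The other heavy chain genes were scarce. Myh7b, a slow-type form, was at 1.07 and 1.37 FPKM in ERβ scKO and at 0.797 and 1.37 FPKM in Control, about 19 and 26 fragments against 13 and 26. Myh13, the extraocular form at the end of the chromosome 11 row, was at about 4 and 3 fragments in ERβ scKO and listed at 0 in both Control libraries. A count of 0 allows up to 3 fragments, so no difference between groups is read from these values. Of the 50-base stretches of the abundant Myh3 transcript, 2.83% were also found in Myh13, its largest share with any heavy chain gene. Myh11, the smooth muscle form, was at about 5 and 4 fragments in ERβ scKO and 3 and 1 in Control. The smooth muscle and pericyte list nevertheless summed to 901 and 866 FPKM in ERβ scKO and 848 and 857 FPKM in Control, most of it from Acta2. Its less abundant genes were not even across libraries. Pdgfrb (4.06 and 1.45 FPKM in ERβ scKO, 8.28 and 2.84 FPKM in Control), Cspg4 and Cnn1 were highest in Control replicate 1. Rgs5 (61.4 and 55.3 FPKM against 42.3 and 56.7 FPKM) and Acta2 were lowest there. Myh14 and Myh15 were at 0 to 2 fragments in each library.

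Light chains bind the neck of the heavy chain, and among the sarcomeric ones the fast forms Mylpf and Myl1 had the highest levels. None of the 5 tested sarcomeric light chain genes passed limma's threshold, 3 had a higher mean in ERβ scKO and 2 a lower one (Myl2 and Myl6b), and the list median was 0.37, against -0.004 for all genes, and 0.06 without Control replicate 1. Mylpf, the fast regulatory light chain, was at 1979 and 2399 FPKM in ERβ scKO and at 1334 and 2126 FPKM in Control. Myl1, the fast essential light chain, was at 645 and 849 FPKM in ERβ scKO and at 382 and 675 FPKM in Control. Both had overlapping groups and the library order of Myh1. Myl1 had the authors' p under 0.05 in the deposited table, with a q of 0.998, as did 3.25% of all genes the authors tested. Myl4, the embryonic and atrial essential light chain, was at 442 and 498 FPKM in ERβ scKO and at 334 and 394 FPKM in Control, without overlap (log2 ratio 0.37, SE 0.12, limma adjusted p = 0.837). Myl2, the slow and ventricular regulatory light chain, was singled out after its values were seen. It was at 3.65 and 6.17 FPKM in ERβ scKO and at 7.85 and 7.46 FPKM in Control. Its groups did not overlap either (log2 ratio -0.58, SE 0.25, limma adjusted p = 0.837). Groups were thus apart for 1 of the 5 tested genes in each direction, against 18.3% of all genes in each.

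Of the nonmuscle light chains and their regulators 0 of 9 were called, with a median of 0.20. The 5 with a ratio above 0 were Myl12b, Rock1, Rock2, Ppp1r12a and Ppp1cb, each with groups that did not overlap, against 18.3% of all genes in that direction. The 4 below 0 were Myl6, Myl9, Myl12a and Dapk3, and among these the groups of Myl12a did not overlap. The median was 0.10 without Control replicate 1. Of the light chains themselves, Myl6 was at 987 and 896 FPKM in ERβ scKO and at 1071 and 958 FPKM in Control. Myl12a was at 640 and 619 FPKM against 697 and 649 FPKM, and Myl9 at 189 and 160 FPKM against 192 and 161 FPKM. Myl12b was at 89.2 and 103 FPKM against 84 and 83.2 FPKM. Rock1, a kinase that raises light chain phosphorylation, was at 19.1 and 16.5 FPKM in ERβ scKO and at 11 and 15.4 FPKM in Control. It had the authors' p under 0.05 in the deposited table, with a q of 0.998, as did 3.25% of all genes the authors tested.

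Thick filament partners and chaperones gave 0 calls among 14 tested genes. Of these, 13 had a higher mean in ERβ scKO and 1, Unc45a, a lower one, with a median of 0.28 that became -0.05 without Control replicate 1. The groups were apart, with ERβ scKO higher, for 5 of the 14, Mybph, Unc45b and Hsp90aa1 among them, against 18.3% of all genes, and with ERβ scKO lower for Unc45a. Hsp90aa1, a chaperone of myosin folding, was at 802 and 728 FPKM in ERβ scKO and at 551 and 716 FPKM in Control. Mybph, a myosin-binding protein, was at 88.2 and 95.7 FPKM in ERβ scKO and at 66.3 and 83.3 FPKM in Control, and Smyd1, a methyltransferase needed for thick filaments, at 57.6 and 68.5 FPKM against 40.9 and 72.7 FPKM. Unc45b, the muscle chaperone of the myosin head, was at 18.6 and 24.7 FPKM in ERβ scKO and at 14.3 and 17.2 FPKM in Control, without overlap. Ttn (titin, which spans the sarcomere) was at 18.4 and 24.7 FPKM in ERβ scKO and at 8.54 and 22.1 FPKM in Control, and Myom2 (an M-band protein) at 26.1 and 33.6 FPKM against 17.2 and 26.5 FPKM. Unc45b, Ttn and Myom2, 3 of the 14, had the authors' p under 0.05 in the deposited table, against 3.25% of all genes the authors tested. For each of these genes the authors' q was 0.998 and limma's adjusted p was 0.837.

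The transcription regulators showed no common direction, with 9 above and 8 below 0 among 17 tested, a median of 0.00 and 0 calls. Myog (myogenin, which drives terminal differentiation) was at 623 and 660 FPKM in ERβ scKO and at 494 and 621 FPKM in Control. Myod1, the myoblast determination factor, was at 368 and 327 FPKM in ERβ scKO and at 385 and 315 FPKM in Control. Nfix, a factor of the switch between embryonic and fetal muscle programmes, was at 9.54 and 9.14 FPKM in ERβ scKO and at 17 and 11.9 FPKM in Control. Its groups did not overlap (limma log2 ratio -0.56, SE 0.20, adjusted p = 0.837). Among the 17, groups were apart with ERβ scKO higher for 1, Myog, and lower for 2, Nfix and Mef2d. This compares with 18.3% of all genes in each direction. Nfix was the list's member with the authors' p under 0.05 in the deposited table, with a q of 0.998. Of all genes the authors tested, 3.25% had p under 0.05.

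Fast and slow troponins were both measured at high levels, while Pvalb, at 0 to 0.433 FPKM, was the 1 fast fibre gene of 8 too low to test. Among the 7 tested fast fibre genes 6 had a higher mean in ERβ scKO and 1, Ckm, a lower one, with a median of 0.18 that became -0.03 without Control replicate 1. Tnnt3 (fast troponin T) was at 590 and 720 FPKM in ERβ scKO and at 381 and 666 FPKM in Control, Tnnc2 (fast troponin C) at 235 and 258 FPKM against 153 and 206 FPKM, and Tnni2 (fast troponin I) at 83.6 and 79.2 FPKM against 59.3 and 87.3 FPKM. Casq1, the fast calsequestrin of the calcium store, was at 17.4 and 18.2 FPKM in ERβ scKO and at 7.96 and 13.9 FPKM in Control. Its groups did not overlap (log2 ratio 0.70, SE 0.25, limma adjusted p = 0.837). Nor did those of Tnnc2 and Actn3, which makes 3 of the 7 with ERβ scKO higher, against 18.3% of all genes. Among the 6 slow fibre genes 5 had a higher mean and 1, Myoz2, a lower one, with a median of 0.20 that became 0.03 without Control replicate 1. Tnnc1 (slow and cardiac troponin C) was at 836 and 985 FPKM in ERβ scKO and at 616 and 820 FPKM in Control, Tnnt1 (slow troponin T) at 513 and 599 FPKM against 429 and 571 FPKM, and Tnni1 (slow troponin I) at 502 and 573 FPKM against 433 and 473 FPKM. The groups of Tnnc1 and Tnni1, 2 of the 6, did not overlap, with ERβ scKO higher, against the same 18.3% of all genes. Casq2, the slow and cardiac calsequestrin, was at 119 and 164 FPKM in ERβ scKO and at 73.6 and 134 FPKM in Control. Tnnc2 and Casq1 (2 of 7 fast genes) and Casq2 (1 of 6 slow genes) had the authors' p under 0.05 in the deposited table. Each had an authors' q of 0.998, and 3.25% of all genes the authors tested had p under 0.05. Limma called 0 genes of either list, and the summed Malat1 and Neat1 level given above was also higher in both ERβ scKO libraries; its part in these values was not tested.

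**Figure D5:**
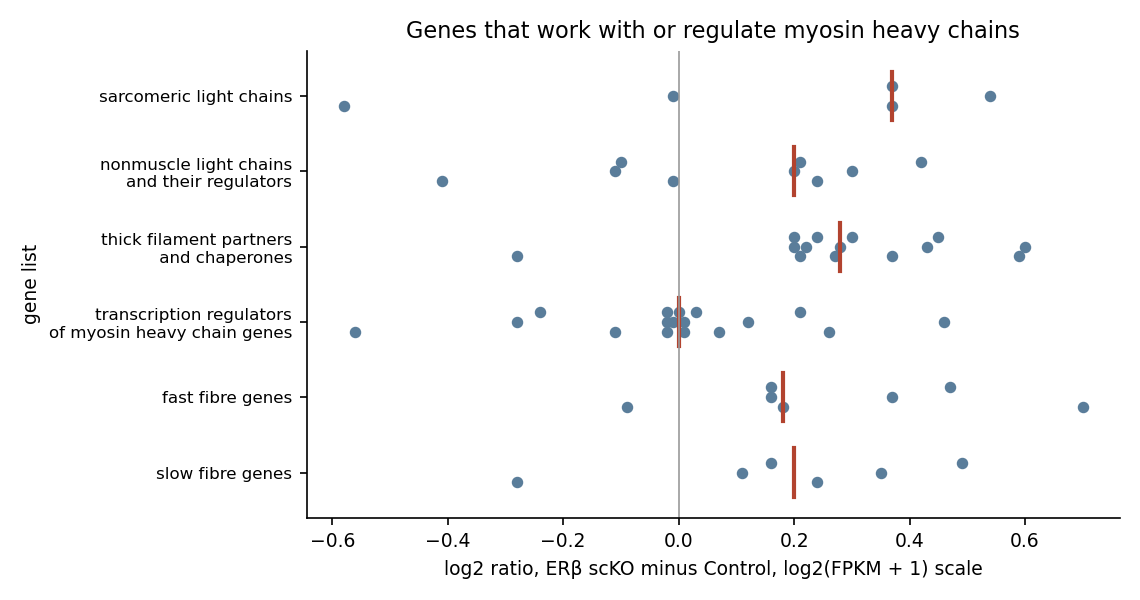
Log2 ratio of ERβ scKO over Control (x axis, log2(FPKM + 1) scale) for each tested gene of the lists of genes that work with or regulate myosin heavy chains; points are genes and red bars are list medians. The medians ran from 0.00 for transcription regulators to 0.37 for sarcomeric light chains, and no gene was called by limma.

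The genes most like a member across the 4 libraries were found by the root mean square difference of their centred log2 values, among 6399 genes that averaged 10 FPKM or more. Closest to Myh1 was Myl1 (0.018), followed by Lmod3, a leiomodin of the thin filament (0.030), and Casq2 (0.034). Closest to Myh3 were Wdr44 (0.021), Cacna1s, the calcium channel of the transverse tubule (0.022), and Actn2, an alpha-actinin of the Z-disc (0.044). Close to Myh9 were Ddx54 (0.015) and B3gat3 (0.026). Like Myh9 both were highest in Control replicate 1, which follows from their choice by likeness to it. Between members, 20 genes were closer to Myh1 than Myh8 was, 27 were closer than Myh3, and 6040 were closer than Myh9. These distances rest on 4 libraries and describe them only.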

How the data were processed

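The deposited gene table holds FPKM for 2 ERβ scKO and 2 Control libraries. The submitters' processing notes name TopHat, Cufflinks and the mm10 build, without versions, as what the authors used. Libraries came from a stranded kit for polyadenylated RNA, per the labels' protocols. Further deposited columns are the authors' own log2 fold change, test statistic (a score), p-value and q-value, and a second sheet holds the 306 rows with p under 0.05. Columns were assigned to libraries by label number and group.

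The 2 groups were fitted on log2(FPKM + 1) in limma (3.58.1, R 4.3.3) with a variance trend. The 11201 genes averaging 1 FPKM or more entered, and genes were called at a Benjamini-Hochberg adjusted p of 0.05. FPKM is not a count, so no count test was run; the fit was tested on simulated data. Fragments were estimated from the steps of low values in 1836 genes with 1 transcript longer than 1500 bases (GENCODE M21). Of their 250 to 291 low values per library, 79.7% to 80.8% lay within 0.15 of a whole number. They cover counting error only. The log2 scale with 1 added understates changes of low genes.

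All members are named, the 3 highest genes of each list, those with the authors' p under 0.05 and the 3 most like Myh3, Myh1 and Myh9, except some that are not reported here. Members and lists were chosen with earlier results of these data known. Alternatives were other pseudocounts, filters and scalings, no variance trend, a block, and each library left out. Annotated antisense transcripts overlap Myh1, Myh2, Myh6 and Myh7, and whether counting used strand is not given in the sources used here.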

Additional observations from a re-analysis of the deposited data

How the results depend on the processing

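No alternative led limma to call a member: 0 of the members passed in each of 13 fits, nor by the authors' deposited q, and the adjusted p of the members lay between 0.167 and 1. Over all genes limma called 4, against 88 with no filter on low values, 0 by the authors' deposited q (306 at their unadjusted p under 0.05) and 7 to 11 with each library left out. Leaving out a library gave log2 ratios of -0.07 to 0.68 for Myh3, -0.10 to 0.94 for Myh8, 0.10 to 0.94 for Myh1, -0.16 to 0.31 for Myh7, -0.62 to -0.01 for Myh9 and -0.26 to -0.24 for Myh10. The ratios of Myh3 (-0.07), Myh8 (-0.10) and Myh7 (-0.16) turned round without Control replicate 1, and that of Myh7 (-0.10) also without ERβ scKO replicate 2; the cause was not tested. Summed by class, the ratio ran from -0.07 to 0.69 for developmental, 0.09 to 0.94 for adult fast, -0.15 to 0.31 for slow and cardiac and -0.57 to -0.05 for nonmuscle genes. List medians ran from 0.06 to 0.49 for sarcomeric light chains, 0.10 to 0.22 for nonmuscle light chains and regulators, -0.05 to 0.52 for thick filament partners, -0.05 to 0.07 for transcription regulators, -0.03 to 0.45 for fast fibre and 0.03 to 0.34 for slow fibre genes. Where a group is left with 1 library, that library is assumed to vary like the others. With replicate number as a block limma called 6 genes and no member (adjusted p 0.579 to 0.874); same-numbered libraries deviated together over genes (r = 0.21), but the labels do not say what the shared number means. Depth limits Myh2, Myh4 and Myh6, at 0 to 6 fragments.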
